A study of Mus musculus with 6 samples.

Results

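The cells described here are barcodes that hold RNA of mature neuronal genes. A barcode was a member when it had at least 1 unique molecular identifier (UMI, a tag that counts each captured RNA molecule once) for at least 3 of 8 neuronal genes, *Snap25*, *Syt1*, *Rbfox3*, *Gad1*, *Gad2*, *Slc17a7*, *Slc17a6* and *Reln*. It also had to hold no more than 1 of 4 genes of immature or cycling cells (*Neurod1*, *Igfbpl1*, *Top2a*, *Mki67*) and no more than 1 of 7 genes of other brain cell types (*P2ry12*, *Cx3cr1*, *Cldn5*, *Flt1*, *Aqp4*, *Mog*, *Pdgfra*). Of 27530 barcodes within the quality limits (250 to 6000 genes, less than 25% of UMIs from mitochondrial genes), 104 met this rule, which is 0.378% (95% Clopper-Pearson interval 0.309 to 0.458). These 104 cells came in 3 kinds. Most resembled Cajal-Retzius cells and used glutamate genes (76 cells, hippocampus only in these libraries), a smaller set resembled GABAergic neuroblasts (22 cells, both regions), and 6 hippocampal cells were of neither kind.

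The study isolated cells quickly from dissected mouse brain tissue, without sorting, to capture microglia and vascular cells. Female wild-type C57Bl/6J mice were used, cerebral cortices at 3 weeks of age and hippocampi at 5 weeks, with white matter trimmed away as far as possible and myelin removed on a density gradient. Cells of 3 mice were pooled per region and sequenced on the 10x Genomics Chromium platform as 3 technical replicates, which gives 6 libraries but 1 biological sample per region. Region, age and preparation therefore cannot be told apart, no p-value was computed, and the standard deviations (SD) below cover technical replicates only. Library totals ran from 39662203 to 50024850 UMIs. The cells of 1 region shared some barcodes between libraries (71 cortical and 749 hippocampal cells), but no member had a shared barcode, and none was called a doublet.

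Cajal-Retzius cells are among the earliest neurons of the cortex. They lie in layer I and along the hippocampal fissure, secrete the glycoprotein reelin, which guides the placement of migrating neurons, and release glutamate; many are lost after birth, and more persist in the hippocampus than in the neocortex. Neuroblasts that carry the transcription factors *Dlx1*, *Dlx2* and *Sp8* arise in the wall of the lateral ventricle and migrate towards the olfactory bulb, where they become GABAergic interneurons. A neuron's transmitter can be read from a few genes: *Gad1* and *Gad2* encode the enzymes that make GABA and *Slc32a1* the transporter that loads GABA into vesicles, whereas *Slc17a6*, *Slc17a7* and *Slc17a8* encode the vesicular glutamate transporters VGLUT2, VGLUT1 and VGLUT3.

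The hippocampal libraries held most members. They numbered 33, 32 and 28 in hippocampus replicates 1, 2 and 3, against 7, 3 and 1 in cortex replicates 1, 2 and 3. All 3 hippocampal libraries lay above all 3 cortical ones. This was 93 of 14210 hippocampal cells (0.654%, interval 0.529 to 0.801, SD 0.0380, n = 3 technical replicates) and 11 of 13320 cortical cells (0.0826%, interval 0.0412 to 0.148, SD 0.0707, n = 3). Without cortex replicate 1 the cortical share was 0.0446%. Intervals cover counting error only. Hippocampal members were deeply sequenced, with a median of 10269 UMIs, whereas the median cell of a hippocampal library held 6629 to 6914. Cortical members were not, with a median of 5069 UMIs beside medians of 5800 to 5908 over all cells of those libraries. When each cell was thinned to 1000 UMIs, 20 hippocampal members and 1 cortical member still met the rule, after 1091 and 431 shallower cells had been left out.

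**Figure D1:**
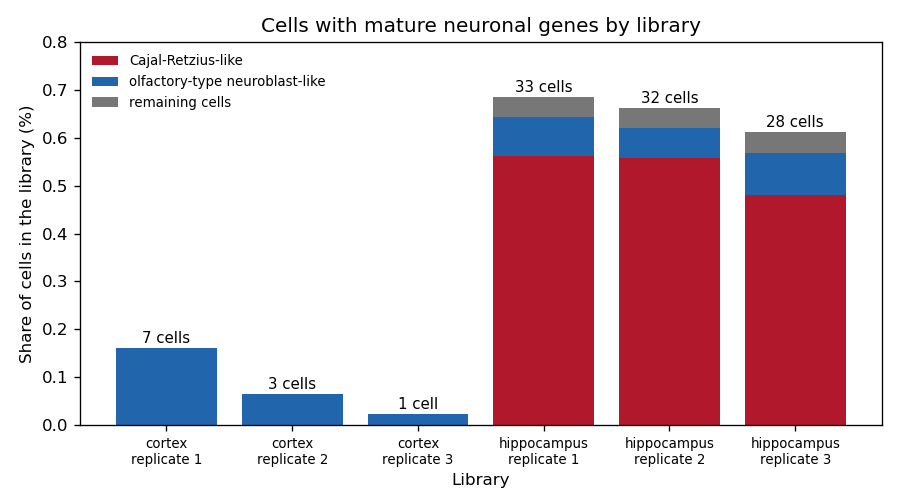
Share of cells passing the quality limits that met the rule, in percent, for each of the 6 libraries, with bars stacked by kind of cell and the number of members above each bar. The hippocampal bars stand at 0.612% to 0.687% and are mostly Cajal-Retzius-like, and the cortical bars stand at 0.0228% to 0.161% and are neuroblast-like throughout.

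The rule chose on these same counts, so the levels of its 8 genes describe the selection. Among the 104 members *Snap25*, a component of the vesicle fusion machinery, was found in 99, *Syt1*, the calcium sensor of fast release, in 86, *Slc17a6* in 76 and *Reln* in 76. *Gad1* was found in 25, *Gad2* in 23, *Slc17a7* in 6 and *Rbfox3*, which encodes the mature neuronal nuclear protein NeuN, in only 3. The label "mature neuronal" thus held in part. All 22 neuroblast-like cells had *Igfbpl1*, a gene of immature neurons that the rule tolerates as a single exception, and no Cajal-Retzius-like or neuroblast-like cell had an *Rbfox3* UMI. Just inside the threshold, 11 cortical and 16 hippocampal members had exactly 3 of the 8 genes, 72 hippocampal members had 4 and 5 had 5. Just outside it, 22 cortical and 51 hippocampal cells had 2 of the 8 genes and met the other limits. The limits on other genes also mattered, because 219 cells had at least 3 neuronal genes and 100 of these were left out for immature genes alone, 11 for genes of other cell types alone and 4 for both.

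The kinds were told apart with list genes that the rule did not use. A set of 11 Cajal-Retzius genes (*Ndnf*, *Calb2*, *Nhlh2*, *Lhx1*, *Lhx5*, *Trp73*, *Ebf3*, *Cacna2d2*, *Cxcr4*, *Barhl2*, *Tbr1*) was counted in each cell, and so were 14 olfactory-type neuroblast genes, mostly Dlx and Sp family factors with *Meis2* and *Dcx*. A cell with at least 3 of the 11 was called Cajal-Retzius-like, and one with at least 5 of the 14 neuroblast-like, limits set with the counts in view. Members fell to the ends of both scales. Of the 104, 28 had 0 or 1 Cajal-Retzius genes, none had 2, and 76 had 3 to 11 with a median of 9. The neuroblast-like cells had 9 to 13 of their 14 genes, and no other member had over 4. Clustering of the 104 cells alone set the same 22 neuroblast-like cells and 1 further cell apart from the rest. With genes scaled to unit variance, a setting chosen after seeing the data, 20 of the 22 lay in that cluster and the other 2 fell in with Cajal-Retzius-like cells.

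**Figure D2:**
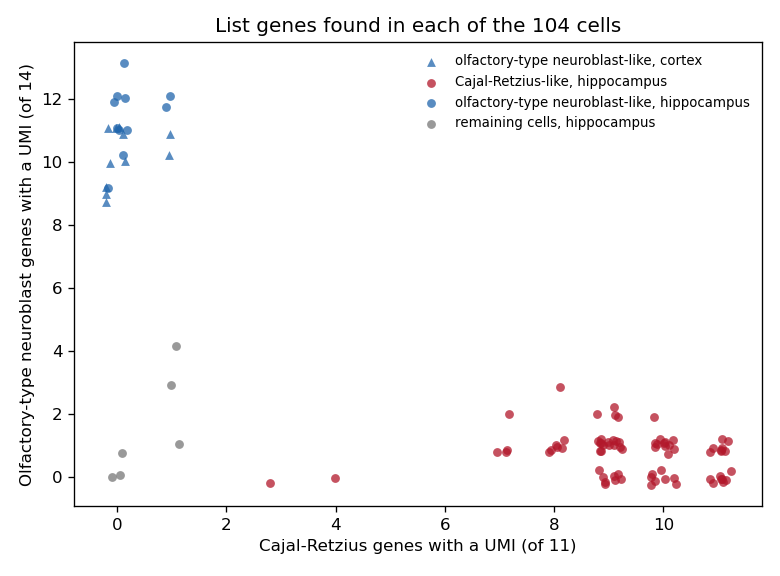
Number of Cajal-Retzius list genes (x axis, of 11) against number of olfactory-type neuroblast list genes (y axis, of 14) with a UMI in each of the 104 cells, shifted slightly at random so that points do not hide each other. The 76 Cajal-Retzius-like cells lie to the right at 3 to 11 genes, the 22 neuroblast-like cells at the top left at 9 to 13 genes, and the 6 remaining cells near the origin.

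Transmitter genes followed the kind of cell. With at least 2 UMIs for a set counted as present, all 11 cortical members were GABAergic, while the 93 hippocampal members comprised 70 with the glutamate set, 12 with the GABA set, 1 with both and 10 with neither. Of the 76 Cajal-Retzius-like cells, 68 had the glutamate set, 8 had neither, and none had the GABA set. All 22 neuroblast-like cells had the GABA set and none the glutamate set. Most of these genes belong to the rule, which favours cells that hold them.

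**Figure D3:**
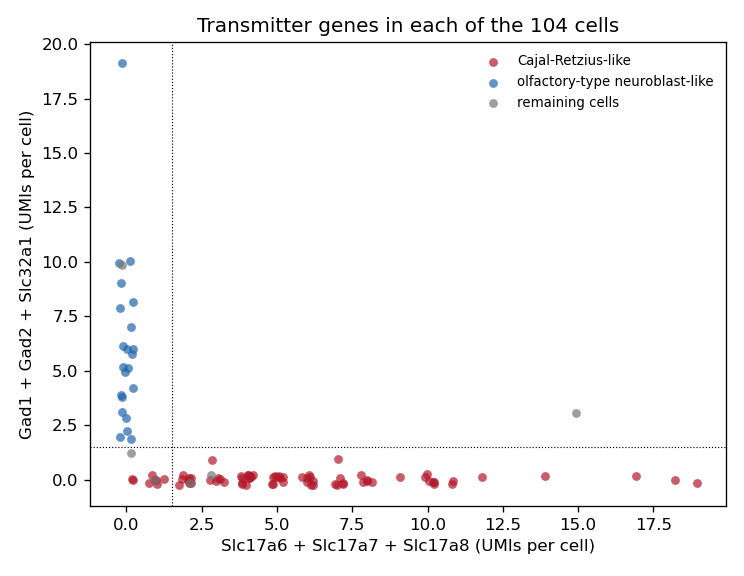
UMIs of the glutamate set (*Slc17a6*, *Slc17a7* and *Slc17a8*, x axis) against UMIs of the GABA set (*Gad1*, *Gad2* and *Slc32a1*, y axis) in each of the 104 cells, shifted slightly at random, with dotted lines just below the limit of 2 UMIs. The 22 neuroblast-like cells lie along the y axis and the Cajal-Retzius-like cells along the x axis, and 1 remaining cell lies beyond both lines.

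Of the vesicular glutamate transporters, VGLUT2 was the one found in most Cajal-Retzius-like cells, and its gene belongs to the rule. *Slc17a6* (chromosome 7, 51622006 to 51671119, GRCm38) was found in 74 of 76 cells, and its summed level in counts per 1000000 UMIs (CPM) was 517, 478 and 592 in hippocampus replicates 1, 2 and 3, or 524 over all cells (SD 57.7, n = 3). *Slc17a7* was found in 3 cells and *Slc17a8* in 6. The GABA genes were all but missing, since *Gad1* and *Gad2* had 0 UMIs, which allows at most 3.70 CPM, and *Slc32a1* had 2. No Cajal-Retzius-like cell had a UMI for *Chat*, *Th*, *Tph2*, *Dbh* or *Hdc*, which mark cholinergic, catecholaminergic, serotonergic and histaminergic cells. *Pnoc*, the precursor of the neuropeptide nociceptin and a gene of many GABAergic neurons, was found in 51 cells at 207 CPM.

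Reelin RNA was present in all 76 Cajal-Retzius-like cells. *Reln* (chromosome 5, 21884454 to 22344702) reached 2478, 2376 and 2629 CPM in hippocampus replicates 1, 2 and 3, or 2484 CPM overall (SD 127), with 7 to 77 UMIs per cell. Its level in the other hippocampal cells was 1.66 CPM, with a UMI in 0.553% of them. The rule helped to choose these cells by *Reln*, so the contrast is a description. After thinning to 1000 UMIs, *Reln* was found in 90.8% of Cajal-Retzius-like cells, 0.0481% of hippocampal microglia and none of the endothelial cells, whereas the unthinned shares were 100%, 0.239% and 0.382%. *Snap25* and *Syt1* were found in 26.3% and 30.3% of thinned Cajal-Retzius-like cells and in 0.144% and 0.112% of thinned microglia. Median depths of the Cajal-Retzius-like cells, microglia and endothelial cells were 10480.5, 6677 and 6701 UMIs, and thinning left out 0, 39 and 86 cells.

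The 11 list genes outside the rule grouped these cells, so their contrasts with other cells are likewise a description. *Ndnf* (chromosome 6, 65671590 to 65712326), which encodes a secreted neurotrophic factor, was in all 76 cells at 3914, 3985 and 3655 CPM in replicates 1, 2 and 3. *Ndnf* was also found in 47.9% of hippocampal endothelial cells at 245 CPM, so it is not particular to neurons in this tissue. *Trp73* (chromosome 4, 154056253 to 154140208), a p53 family transcription factor needed by Cajal-Retzius cells, was in 71 cells at 233, 330 and 307 CPM. *Lhx1* (chromosome 11, 84518284 to 84525535), a LIM homeodomain factor, was in 73 cells at 665, 505 and 486 CPM. Both stood near 0 in the remaining hippocampal cells, at 1.21 CPM for *Trp73* and 0.501 CPM for *Lhx1*. The calcium channel subunit *Cacna2d2* was in all 76 cells at 1147 CPM (SD 33.2), the basic helix-loop-helix factor *Nhlh2* in 73 at 624 CPM (SD 61.3), *Ebf3* in 63 at 204 CPM (SD 15.7) and *Barhl2* in 54 at 127 CPM (SD 12.3). Among the least frequent of the 11 were *Lhx5*, in 49 cells at 106 CPM, and *Cxcr4*, the receptor of the chemokine CXCL12, in 54 cells at 127 CPM. Of the 11 genes 4 were also common in hippocampal immature neurons, which were chosen by *Neurod1*, *Igfbpl1* and *Dcx*, with *Calb2* in 63.3% at 661 CPM (722 CPM in the Cajal-Retzius-like cells), *Cxcr4* in 51.0% at 93.4 CPM, *Tbr1* in 49.0% at 84.5 CPM and *Nhlh2* in 44.1% at 102 CPM. *Cxcl12* itself was at 796 CPM, against 8.52 CPM in the immature neurons and 2109 CPM in hippocampal endothelial cells, where 81.8% had a UMI.

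As a further description, the 10 genes with the largest folds over all other hippocampal cells were *Reln*, *Snhg11*, *Meg3*, *Cacna2d2*, *Lhx1*, *Gap43*, *Clstn2*, *Nhlh2*, *Slc17a6* and *Syt1*. *Snhg11* and *Meg3*, both long noncoding RNAs abundant in neurons, stood at 5648 and 6925 CPM against 13.5 and 43.9 CPM, and *Gap43*, a protein of growing axons, at 1264 against 9.81 CPM. Against the other members, the leading genes also included *Ramp1*, a subunit of the receptor for calcitonin gene-related peptide (98.7% of Cajal-Retzius-like cells, 10.7% of the other members), and *Fat3*, an atypical cadherin (96.1%, and 0 of 28).

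**Figure D4:**
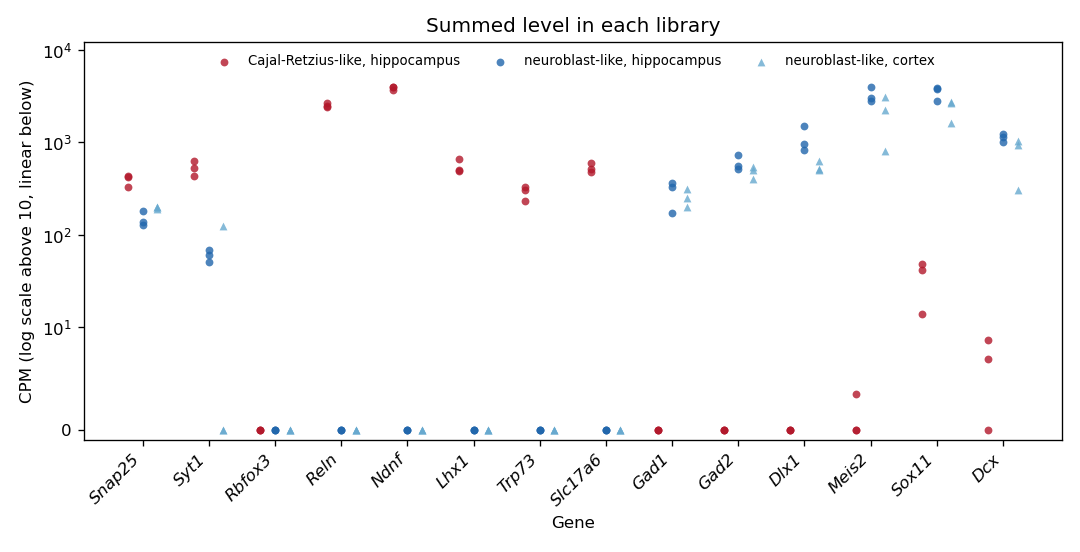
Summed level of 14 genes in CPM (y axis, logarithmic above 10 and linear below) in each library, for the Cajal-Retzius-like cells of the hippocampus and the neuroblast-like cells of both regions. *Reln*, *Ndnf*, *Lhx1*, *Trp73* and *Slc17a6* are at 0 in every set of neuroblast-like cells, *Gad1*, *Gad2* and *Dlx1* are at 0 in every set of Cajal-Retzius-like cells, and *Rbfox3* is at 0 in both.

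The Cajal-Retzius genes were also counted in every cell that passed the quality limits, members or not. At least 5 of the 11 were found in 30, 28 and 24 cells of hippocampus replicates 1, 2 and 3, or 82 of 14210 (0.577%, interval 0.459 to 0.716, SD 0.0498), and 74 of the 82 were members. The 8 others failed the rule through fewer than 3 neuronal genes (3 cells), over 1 immature gene (1 cell) or over 1 gene of another cell type (4 cells). No cortical cell had 5, with a highest count of 4, so 0 of 13320 cells allows a share of up to 0.0225%. At the limit of 3 genes that grouped the members, 8 cortical and 213 hippocampal cells were found. Of these, 0 and 76 were members, and 0 and 87 had a *Reln* UMI.

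Immature neurons of the same libraries were taken for comparison. These were 286 hippocampal cells that were not members and had at least 2 of *Neurod1*, *Igfbpl1* and *Dcx*, no more than 1 gene of another cell type and fewer than 5 neuroblast genes. Their median depth of 10621.5 UMIs was close to the 10480.5 of the Cajal-Retzius-like cells. A gene was called when the sets differed at least 2-fold and their ranges over the 3 libraries did not overlap, among genes with at least 50 UMIs in the pair of sets. Of 8602 genes, 879 (10.2%) were called higher in the Cajal-Retzius-like cells and 1308 (15.2%) higher in the immature neurons. The median log2 ratio of all genes was -0.11. Summed depth was unequal, at 810784 UMIs in the Cajal-Retzius-like cells and 3170312 in the immature neurons. A gene could thus reach 50 UMIs at a lower CPM through the immature neurons alone, so the counts each way are not on a par. The libraries are technical replicates and the sets were chosen by their RNA, so these counts describe the sets and are no test. The comparison set also held progenitors and cycling cells, since *Eomes*, a factor of intermediate progenitors, was in 65.4% of its cells and *Top2a* in 15.0%, and its cycling list summed to 1241 CPM against 189 CPM in the Cajal-Retzius-like cells. Without the 56 cells that held at least 2 of the 8 cycling genes, a setting chosen after seeing the data, that list stood at 37.9 CPM, and 804 and 1066 genes were called.

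General neuronal genes were mostly higher in the Cajal-Retzius-like cells, with exceptions. Of the 25 genes on this list 4 (*Snap25*, *Syt1*, *Reln* and *Rbfox3*) belong to the rule and restate the selection. Of the other 21 genes 18 had enough UMIs, 11 were called higher in the Cajal-Retzius-like cells and 1 higher in the immature neurons, and the median log2 ratio was 1.39. *Stmn2*, a microtubule regulator of growing axons, stood at 1249 against 585 CPM. The exception was *Tubb3*, a neuronal tubulin (287 against 1010 CPM). Among the rule genes *Syt1* was at 534 against 33.1 CPM, whereas *Rbfox3* lay the other way. *Rbfox3* (chromosome 11, 118489762 to 118911597) had 0 UMIs in all 76 Cajal-Retzius-like cells and was found in 80.8% of immature neurons at 230 CPM, at least 62.1-fold higher against a limit of 3 UMIs over the Cajal-Retzius-like cells. After thinning, the shares were 0% and 18.1%, and 4 immature neurons were left out. On the immature neuron list 4 of 14 genes, *Neurod1*, *Igfbpl1*, *Dcx* and *Cd24a*, helped to choose or group the cells, and of the other 10 genes 9 were called higher in the immature neurons. Of these *Sox11*, a factor of newborn neurons, was at 33.3 against 3661 CPM.

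Genes of transmitter release were found in the Cajal-Retzius-like cells and were compared with the immature neurons in the same way. Of 20 synaptic vesicle genes 18 had enough UMIs, 8 were called higher in the Cajal-Retzius-like cells and 1 higher in the immature neurons, with a median log2 ratio of 0.82. *Vamp2*, the main vesicle SNARE, was at 270 against 110 CPM, and *Sv2a*, a vesicle glycoprotein, at 187 against 39.1 CPM. The 1 gene called the other way was *Cplx2*, a complexin, at 60.4 against 329 CPM. Without the cycling cells of the comparison set 7 and 2 of 18 were called, with a median log2 ratio of 0.60.

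Ion channel genes were counted in the same way. Without *Cacna2d2*, which grouped the cells, 20 genes were matched and 18 had enough UMIs, of which 8 were called higher in the Cajal-Retzius-like cells and 2 in the immature neurons (*Kcna1* and *Cacna1e*), with a median log2 ratio of 0.92. *Cacna2d1* was in all 76 cells at 576 against 49.5 CPM. The fast potassium channel *Kcnc2* was at 85.1 against 0.315 CPM. Without the cycling cells of the comparison set 7 and 3 of 16 were called, with a median log2 ratio of 0.82.

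Receptor genes were unequal within each family. AMPA receptor subunits were found widely, with *Gria2* in all 76 Cajal-Retzius-like cells (608 CPM), *Gria1* in 55 (186 CPM) and *Gria4* in 53 (127 CPM), and the obligatory NMDA receptor subunit *Grin1* in 43 (67.8 CPM). Its partner subunits *Grin2a*, *Grin2b* and *Grin2d* had 0 UMIs, whereas *Grin2b* was at 102 CPM in the immature neurons, at least 27.5-fold higher. Of 9 tested glutamate receptor and scaffold genes, 5 were called higher in the Cajal-Retzius-like cells and 2 in the immature neurons (*Grin2b* and *Grik2*), with a median log2 ratio of 1.09, and without the cycling cells of the comparison set 3 were called each way. Among GABA receptor genes, *Gabbr1*, a subunit of the metabotropic receptor, was in 70 cells at 253 CPM, and its partner *Gabbr2* in 31 at 56.7 CPM. The chloride transporters that set the sign of the GABA response were low, with *Slc12a2* (NKCC1, chloride uptake) in 10 cells at 13.6 CPM and *Slc12a5* (KCC2, chloride extrusion) in 7 cells at 9.87 CPM. Of 8 tested genes on that list, 2 were called higher in the Cajal-Retzius-like cells, *Gabbr2* among them, and 3 in the immature neurons (*Gabra2*, *Gabra4* and *Slc12a2*), with a median log2 ratio of 0.50, and without the cycling cells 1 and 2 of 7 were called.

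Transcription factors that mark brain regions split in the Cajal-Retzius-like cells. *Emx1* had 0 UMIs, against 158 CPM in the immature neurons, whereas its relative *Emx2* was in 66 Cajal-Retzius-like cells at 288, 268 and 302 CPM in replicates 1, 2 and 3. *Lhx2*, a selector of cortical identity, was in 60 cells at 165 CPM against 634 CPM. The zinc finger genes *Zic1* and *Zic2*, which are expressed in the cortical hem and septum among other midline tissues, were in 56 and 50 cells at 164 and 111 CPM, and both were called higher in the Cajal-Retzius-like cells. *Gbx2*, *Otp*, *Sim1*, *Hoxb3*, *Hoxb5*, *Hoxc4*, *En1* and *Gata3*, which mark thalamus, hypothalamus, midbrain or hindbrain, had 0 UMIs in these cells. Of the 18 genes on this list 9 were tested, 2 were called higher in the Cajal-Retzius-like cells and 5 in the immature neurons, with a median log2 ratio of -1.91.

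Genes of hippocampal and neocortical principal neurons were unequal in the Cajal-Retzius-like cells. The granule cell list summed to 56.7 CPM, against 739 CPM in the immature neurons, where *Prox1*, the factor of dentate granule cells, was the most abundant (4.93 against 551 CPM). The CA pyramidal list summed to 162 CPM against 200 CPM, and *Neurod6*, *Spink8*, *Iyd* and *Crym* had 0 UMIs in the Cajal-Retzius-like cells. The cortical projection list summed to 821 CPM against 441 CPM, and of 7 tested genes 3 were called higher in the Cajal-Retzius-like cells and 2 (*Fezf2* and *Rorb*) in the immature neurons. The 3 were *Tbr1*, which also grouped the cells, *Nxph4* and *Tshz2*, found in 64, 64 and 54 Cajal-Retzius-like cells, but *Fezf2*, *Foxp2*, *Rasgrf2* and *Cplx3* in none. Without genes that chose or grouped the cells, 2 of 6 tested genes were called each way, with a median log2 ratio of -0.27. When the cycling cells of the comparison set were left out as well, 2 and 3 of 6 were called. The striatal list summed to 221 CPM, led by *Penk*. On the list of interneuron subtype genes, *Ndnf* and *Calb2*, which grouped the cells, and *Nr2f2* were the most abundant, and *Sst*, *Vip*, *Npy* and *Lamp5* were at 0. Of 9 tested genes of that list outside the choice and grouping, 3 (*Nr2f2*, *Cck* and *Penk*) were called higher in the Cajal-Retzius-like cells and 6 in the immature neurons, with a median log2 ratio of -1.61. Of 6 such genes on the glutamatergic neuron list 1, *Nptx1*, a secreted pentraxin (184 against 7.25 CPM), was called higher in the Cajal-Retzius-like cells. The other 5, *Emx1*, *Fezf2*, *Neurod2*, *Neurod6* and *Neurog2*, transcription factors of the cortical glutamatergic lineage, had 0 UMIs there and were called higher in the immature neurons. Of 8 tested immediate early and stress genes 1 was called higher in the Cajal-Retzius-like cells and 3 in the immature neurons, with a median log2 ratio of -0.21. *Jun* was at 662 against 308 CPM and *Fos* at 55.5 against 177 CPM.

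The Cajal-Retzius-like cells were not uniform. For each of 1405 genes with at least 100 UMIs, the variance between cells was divided by the variance that counting alone gives, with a median ratio of 1.15 and a 90th percentile of 1.94. The highest ratios were those of *Apoe* (863), *Lyz2* (131), *Malat1* (81.5) and *C1qa* (61.6). At a given relative spread between cells the ratio rises with a gene's UMIs, so it does not rank genes of unequal level by variability. For example, *Malat1* had 62430 UMIs and *Cck* 149. *Malat1* is a nuclear RNA, and *Lyz2* and *C1qa* are genes of microglia and macrophages. *Apoe* was at 2715 CPM in hippocampal microglia and at 4928 CPM over all hippocampal cells outside the members, so it is not particular to microglia. A single cell held 983 of the 1067 *Apoe* UMIs. Neuronal genes came further down, with *Meg3* at 8.48. *Calb2*, which encodes the calcium buffer calretinin, had a ratio of 6.34, and the neuropeptide genes *Cck* and *Penk* had 6.28 and 6.22. *Reln* and *Ndnf* had 3.23 and 3.35. *Calb2* had 0 UMIs in 19 cells, 1 to 4 in 14 and 5 to 23 in 43, and cells without it occurred in all 3 libraries (3, 9 and 7 cells). *Cck* was found in 3 of the 19, 4 of the 14 and 25 of the 43 cells, at 34.8, 45.5 and 281 CPM. In cells with at least 5 *Calb2* UMIs *Cck* was at 330, 299 and 156 CPM in replicates 1, 2 and 3, and in cells without *Calb2* at 0, 26.1 and 61.2 CPM. These ranges did not overlap, although the 0 in replicate 1 comes from 3 cells and allows up to 98.3 CPM. *Reln* did not follow this split, at 2516, 2521 and 2461 CPM in the same 3 sets.

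**Figure D5:**
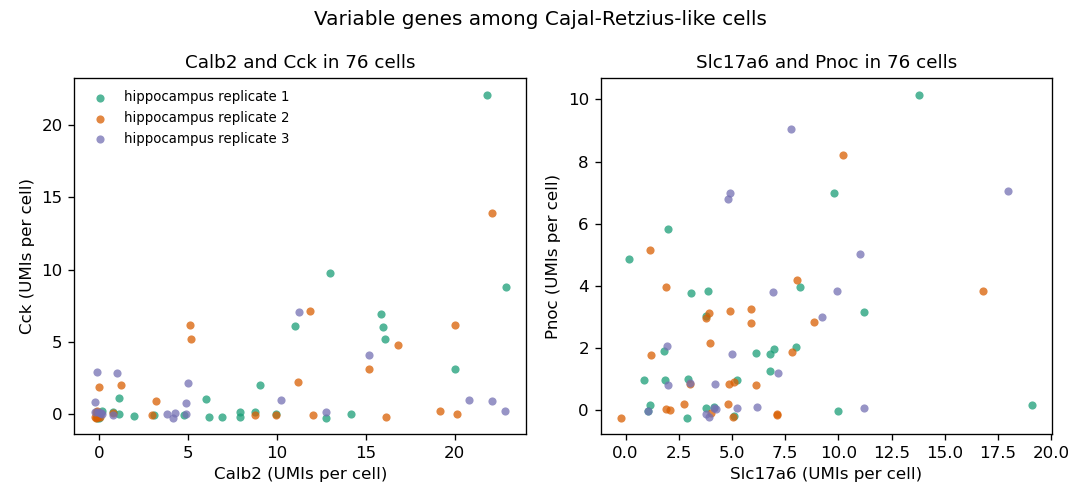
UMIs per cell of *Cck* against *Calb2* (left) and of *Pnoc* against *Slc17a6* (right) in the 76 Cajal-Retzius-like cells, coloured by library and shifted slightly at random. *Calb2* is at 0 in 19 cells and reaches 23 UMIs in others, cells of all 3 libraries are spread over both plots, and the high *Cck* counts lie among cells with *Calb2*.

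Clustering divided the 76 cells into 45 cells (18, 17 and 10 in replicates 1, 2 and 3) and 31 cells (9, 10 and 12), each found in every library. These clusters were made from the same counts, so their genes are a description. At a lower clustering resolution the 76 cells stayed together, at a higher one they formed 3 clusters of 30, 25 and 21, and with genes scaled they were divided into 54 and 22. *Fibin*, a secreted factor named for its part in fin development, was in 62.2% of the first and none of the second, at 155 and 0 CPM. *Calb2* was found in 88.9% and 54.8% of the cells at 862 and 491 CPM, *Cck* at 260 and 58.6 CPM, *Pnoc* at 121 and 348 CPM and *Slc17a6* at 413 and 706 CPM, with library ranges that did not overlap. *Reln* was level, at 2487 and 2479 CPM. The first cluster was also led by *Apoe* and by *C1qa*, a gene of microglia and macrophages. *Apoe* was at 83.7, 5328 and 64.8 CPM in the first cluster in replicates 1, 2 and 3, so replicate 2 set its level. Cells that held at least 3 microglial genes outside the rule numbered 7 in the first cluster and 2 in the second. Their part in the differences between the clusters, those of *Calb2* and *Slc17a6* included, was not tested.

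RNA of other cell types was therefore summed by list in the Cajal-Retzius-like cells. The 11 microglial genes, all of them detected, came to 577 CPM, at 339, 1162 and 136 CPM in replicates 1, 2 and 3, with *C1qa* the most abundant, and 1 cell gave 56.0% of these UMIs. The 7 macrophage genes, all of them detected and led by *Mrc1*, came to 118 CPM, of which 97.9% lay in 1 cell. Astrocyte genes came to 467 CPM, led by *Mt3*, with *Aqp4* at 0. Oligodendrocyte precursor genes came to 171 CPM, led by *Cspg5*, with the defining genes *Pdgfra*, *Olig2* and *Sox10* at 0. Endothelial genes came to 116 CPM, led by *Itm2a*, and the oligodendrocyte list to 232 CPM. The mural and fibroblast list came to 125 CPM (led by *Rgs5*), the choroid and ependymal list to 165 CPM (*Ttr*), the cycling list to 189 CPM (*Cenpf*, with *Top2a* at 0), the committed precursor list to 170 CPM (*Sirt2*) and the erythroid list to 21.0 CPM. There were 9 cells that held at least 3 of the microglial genes outside the rule. The other 67 cells had *Reln* at 2467, *Slc17a6* at 546, *Calb2* at 693, *Trp73* at 267 and *C1qa* at 12.9 CPM. In the 9 cells the same genes were at 2589, 387, 898, 423 and 969 CPM. The calls without these cells, computed after seeing the data, were 861 and 1320 genes against the immature neurons, and 771 and 216 genes against the neuroblast-like cells of the hippocampus. The part of RNA from the other cell types in the results was not tested. The levels of *Aqp4*, *Pdgfra*, *P2ry12*, *Cx3cr1*, *Cldn5*, *Flt1*, *Mog*, *Top2a* and *Mki67* are held down by the rule, which limits cells with these genes. The sums of the lists that hold them are affected as well.

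The 22 neuroblast-like cells were evenly split, with 7, 3 and 1 in cortex replicates 1, 2 and 3 and 4, 3 and 4 in hippocampus replicates 1, 2 and 3. They were shallower than the Cajal-Retzius-like cells, at median values of 5503 UMIs and 2239 genes against 10480.5 and 3706.5. The rule reached only some cells of this kind. At least 9 of the 14 neuroblast genes were found in 44 of 13320 cortical cells (0.330%, SD 0.0163) and 46 of 14210 hippocampal cells (0.324%, SD 0.118), of which 11 in each region were members, and 63 of the 68 others had fewer than 3 of the neuronal genes. In that wider count the regions differed by less than the spread between the hippocampal replicates.

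GABA genes and Dlx genes marked these cells in both regions. *Gad1* (chromosome 2, 70553072 to 70602014) was in all 22 at 314, 250 and 201 CPM in cortex replicates 1, 2 and 3 and 330, 362 and 170 CPM in hippocampus replicates 1, 2 and 3, so that the regions overlapped. *Gad2* was in all 22 at 546 CPM and *Slc32a1* in 12 at 88.8 CPM. *Dlx1* (chromosome 2, 71528113 to 71533981) was in all 22 at 806 CPM and *Dlx2* in 20 at 478 CPM. The zinc finger factors *Sp8* and *Sp9* were in 17 and 21 cells at 540 and 840 CPM, and *Meis2*, a cofactor of olfactory interneurons and striatal neurons, in 22 at 2827 CPM. *Lhx6*, the factor of interneurons from the medial ganglionic eminence, was in none, nor were *Calb2*, *Th*, *Reln* or *Pnoc*.

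Genes of immature neurons that neither chose nor grouped these cells were abundant in them. *Sox11*, *Sox4*, a related factor of newborn neurons, and the tubulin gene *Tubb2b* were each in all 22, at 3005, 3531 and 5204 CPM. *Dcx*, a microtubule protein of migrating neurons that helped to group the cells, and the rule gene *Igfbpl1* were also in all 22, at 1018 and 1619 CPM. Of the rule's neuronal genes, *Syt1* was in only 6 of 22 cells at 47.8 CPM and *Snap25* in 19 at 164 CPM, 0 to 2 UMIs per cell for each. They thus met the rule mostly through *Gad1*, *Gad2* and a few UMIs of *Snap25*. The proliferation genes *Top2a* and *Mki67* had 0 UMIs by selection, since the rule allows 1 of its 4 immature or cycling genes and each of these cells held *Igfbpl1*. Of the lists of other cell types, the astrocyte list was highest at 724 CPM, with 70.8% of its UMIs in 1 cell, followed by the committed precursor list at 321 CPM (led by *Fyn*) and the oligodendrocyte precursor list at 260 CPM (led by *Vcan*). Microglial genes summed to 137 CPM, and all 7 macrophage genes were at 0. The part of this RNA in the results was not tested.

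In the hippocampal libraries, where both kinds occurred, 3265 genes were compared between the Cajal-Retzius-like and the neuroblast-like cells. Of these 855 (26.2%) were called higher in the Cajal-Retzius-like cells and 245 (7.5%) higher in the neuroblast-like cells, with a median log2 ratio of 0.31. The summed depth of 810784 against 85404 UMIs limits what can be seen in the second set. A gene could reach the minimum number of UMIs at a lower CPM through the Cajal-Retzius-like cells alone. The counts each way, here and for the lists below, are therefore not on a par. Without genes that chose or grouped the cells, 9 of 19 tested genes of the general neuronal list were called higher in the Cajal-Retzius-like cells and 4 higher in the neuroblast-like cells, and of the synaptic vesicle list 9 of 14 and 0. The immature neuron list went the other way, with 1 and 5 of 7. Of the 13 Cajal-Retzius genes 11 grouped the cells and 2, *Reln* and *Slc17a6*, belong to the rule, and the neuroblast genes grouped them as well, so their contrasts are a description. Against a limit of 3 UMIs over the neuroblast-like cells, *Ndnf* was at least 110-fold, *Slc17a6* at least 14.9-fold and *Snhg11* at least 161-fold higher in the Cajal-Retzius-like cells.

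Between the regions, few genes were called in the neuroblast-like cells. Their summed depth of 61018 UMIs in cortex and 85404 in hippocampus limits what can be seen. Of 399 genes with at least 50 UMIs, 7 (1.75%) were called higher in cortex and 11 (2.76%) higher in hippocampus, with a median log2 ratio of 0.09. With a minimum of 20 UMIs, a setting chosen after seeing the data, 26 and 53 genes were called. Of 9 tested immature neuron genes none was called, and of 9 tested neuroblast genes 1 was, in hippocampus. Also higher in hippocampus were *Cdkn1b*, an inhibitor of the cell cycle (164 and 468 CPM), and the linker histone gene *H1f0* (81.9 and 585 CPM). Towards cortex, *Gm42418* (9243 and 1546 CPM) and *AY036118* (2032 and 293 CPM), loci that overlap ribosomal RNA sequence, and *Gm10076* (1065 and 176 CPM) had larger ratios than *Jun* (803 and 281 CPM). The counts of the regions were made with different gene annotations, whose part in these calls was not tested. *Apoe*, at 1065 and 23.4 CPM over the regions, stood at 114, 3680 and 201 CPM in cortex replicates 1, 2 and 3, and 1 cell held 57 of its 65 cortical UMIs. Without cortex replicate 2, a setting chosen after seeing the data, *Apoe* was at 133 CPM and had too few UMIs to be called. The astrocyte list stood at 4740 CPM in cortex replicate 2, a library with 3 members, against 171 and 201 CPM in the other 2 cortical libraries, led by *Mt3* over all 22 cells. Its part in the *Apoe* difference was not tested. Cortex replicate 3 held a single cell, so the cortical range rests on few UMIs. Without replicate 1, 13 genes were called higher in cortex and 8 higher in hippocampus, without replicate 2 the counts were 5 and 7, and without replicate 3 they were 10 and 7. Of the 11 genes first called higher in hippocampus, 2, 4 and 4 were among these.

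Across all members, 229 of 3662 genes (6.25%) were called higher in cortex and 933 (25.5%) higher in hippocampus, with a median log2 ratio of -0.33. The kinds of cell differ between the regions, 11 neuroblast-like cells making up the cortical members and 76 Cajal-Retzius-like cells 81.7% of the hippocampal ones, so region and kind of cell cannot be told apart in this contrast. The largest ratios towards hippocampus were those of *Snhg11*, *Ndnf*, *Reln* and *Pcp4*, each with 0 UMIs in the cortical members and at 5064, 3313, 2128 and 1640 CPM in the hippocampal ones. The cortical members held 61018 UMIs in all and the hippocampal ones 946346, so a gene could reach 50 UMIs through the hippocampal side alone. Against a limit of 3 UMIs over the cortical members the genes were at least 103-fold, 67.4-fold, 43.3-fold and 33.4-fold higher, and *Reln* belongs to the rule and *Ndnf* grouped the cells. Towards cortex, they included *Nudt4* (737 and 40.2 CPM), *Tiam2*, an activator of the GTPase Rac (803 and 59.2 CPM), *Meis2* (2475 and 279 CPM) and *Gad2* (508 and 54.9 CPM).

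The 6 remaining cells, 2 in each hippocampal library, are described singly. They held all 3 members with *Rbfox3*. A cell of replicate 3 with 19229 UMIs had 13 UMIs of *Prox1*, 17 of *C1ql2*, 32 of *C1ql3*, 15 of *Slc17a7* and 6 of *Rbfox3*, genes of dentate granule neurons, together with 3 of *Gad1*. It also had 13 of *Mt3*, 12 of *Slc1a2* and 9 of *Mbp*, genes of glia. A cell of replicate 2 with 10129 UMIs had 7 of *Gad1*, 3 of *Gad2*, 7 of *Vip*, 10 of *Adarb2*, 24 of *Maf* and 2 of *Rbfox3*, and was the only remaining cell classed as GABAergic. Another cell of replicate 3, with 7369 UMIs, had 34 of *Igfbpl1*, 24 of *Sox11* and 2 of *Rbfox3*. A cell of replicate 1 with 2381 UMIs had 3 of *Slc17a7*, 5 of *Nrgn*, 5 of *Hpca* and 4 of *Camk2a*, which are genes of forebrain excitatory neurons. Another cell, of replicate 2 with 3629 UMIs, had such genes too, with 15 of *Camk2a*, 7 of *Nrgn*, 4 of *Bcl11b* and 1 each of *Slc17a6* and *Slc17a7*, together with 30 of *Mt3*, 19 of *Slc1a2* and 11 of *Mbp*, genes of glia. These 2 cells were classed as glutamatergic. The last cell, of replicate 1, had 38 of *Pdgfra*, 43 of *Olig1* and 12 of *Sox10*, genes of oligodendrocyte precursors. Single cells of this kind have no replicate and allow no statement on their frequency.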

How the data were processed

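The files the authors deposited hold unnormalized UMI counts by gene and barcode, 1 matrix per library, after cell calling (every barcode had at least 500 UMIs) but before any other quality filter. The submitters' processing notes name Cell Ranger 5.0.1 and mm10, whereas the matrix headers name 3.0.1 for cortex and 3.1.0 for hippocampus; the libraries list 31053 and 27998 genes, and the 27514 shared identifiers were used in all comparisons and clusters. Coordinates come from GENCODE release M21 on GRCm38.

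The quality limits were 250 to 6000 genes and less than 25% mitochondrial UMIs. Doublets were scored with Scrublet at 0.8% per 1000 barcodes and kept. UMIs were summed per library and kind of cell and divided by the summed total (CPM). Log2 ratios used a pseudocount of 5 CPM, and a gene was called at 2-fold or more with library ranges apart. Members were clustered after log-normalization to 10000 on 2000 variable genes, 30 components and a Leiden resolution of 0.5. Some genes of the lists are counted but not reported by name here. Most abundant and led by refer to summed UMIs, with no correction for gene length. The members and the 29 gene lists were chosen with earlier results of these data known, and the limits that divide the kinds were set after seeing the counts. The genes named are those of the rule and of the lists, examples being mostly the most abundant, the 10 leading genes of each cluster, and the 12 largest ratios each way between regions with ranges apart; others, such as the variable genes, were chosen after their values were seen. Alternatives covered the quality limits, the rule, depth, pseudocount, minimum UMIs and each replicate left out. Scripts were tested on simulated data. Software was scanpy 1.11.5, leidenalg 0.10.2, matplotlib 3.10.9, pandas 2.3.3, scipy 1.17.1 and numpy 2.4.6 under Python 3.11.15.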

Additional observations from a re-analysis of the deposited data

How the results depend on the processing

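Of 157 alternative values over 28 results, 128 stayed within the spread of replicates or within 1.5 times the count, and 29 moved. A change of direction was not scored. The spread is a wide limit where replicates differ. *Apoe* in cortical neuroblast-like cells counted as unmoved at 1065 CPM and, without cortex replicate 2, at 133 CPM. So did the cortical share of members, at 0.0826% and, without replicate 1, at 0.0446%. The share of members in hippocampus (0.654%) became 0.727% with a mitochondrial limit of 10%, and with at least 4 of the 8 neuronal genes it was 0.542% in hippocampus and 0% in cortex. With no exclusion gene allowed it was 0.296% and 0%, and after thinning to 1000 UMIs 0.153% and 0.00776%. Under the same 3 changes the GABA share of hippocampal members (12.9%) was 5.20%, 2.38% and 0%, and the glutamate share (75.3%) was 85.7%, 88.1% and 35.0%. With 1 UMI for a transmitter set the glutamate share was 80.7%. With 3 UMIs it was 65.6%, the GABA share 10.8% in hippocampus and 90.9% in cortex. With a minimum of 20 UMIs, 373 genes were called higher in cortex and 2026 higher in hippocampus over all members. The following were chosen after seeing the data. With 20 UMIs, 1557 and 515 genes were called between Cajal-Retzius-like and neuroblast-like cells, and 26 and 53 between neuroblast-like cells of cortex and hippocampus. The latter calls in hippocampus were 6 without mitochondrial, ribosomal and haemoglobin genes. When 1 replicate was left out, the calls between neuroblast-like cells of the regions ranged from 5 to 13 higher in cortex and from 7 to 8 higher in hippocampus, and without replicates 1, 2 and 3 in turn 4, 5 and 6 of the 7 genes first called in cortex and 2, 4 and 4 of the 11 in hippocampus were among them. No result comes from a test, and no paired analysis was run. Sets from the same libraries were compared by their ranges over libraries, not by ratios within each library. A library-corrected clustering of all members could not be computed with 1 member in cortex replicate 3, and none was run on the Cajal-Retzius-like cells alone. Depth limits the neuroblast-like cells and the 6 remaining cells, at 146422 and 50158 UMIs in all.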
